A study of Rattus norvegicus with 20 samples.

Results

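The 8 genes described here, of glucocorticoid sensing and glucocorticoid handling, were followed across 20 rat liver libraries: the receptor gene Nr3c1, the receptor chaperone genes Hsp90ab1 and Fkbp4, the activation genes Hsd11b1 and H6pd, the clearance genes Akr1d1 and Srd5a1, and the plasma carrier gene Serpina6. They were chosen by symbol, as 8 of the 32883 rat genes in the table, and each symbol matched 1 gene. All 8 were among the 11869 genes that passed the filter on low values. The 4 groups, each with 5 male rats and 5 libraries, were KYDS+BGZ_L (both agents, hydrocortisone at 25 mg/kg with the BGZ_L powder at 0.9 g/kg, labelled as kidney-yang deficiency syndrome), KYDS (the same hydrocortisone dose alone, with the same disease label), BGZ_L (the powder alone at 0.9 g/kg, labelled healthy) and CON (0.5% CMC-Na, labelled healthy). The series concerns Psoraleae Fructus, and the labels do not say what the code BGZ_L stands for. Strain, age, route and length of dosing are not stated in the labels, which also do not tie each library to its own rat, so p values measure the spread between libraries.

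Hydrocortisone is cortisol, whereas corticosterone is the main glucocorticoid that rats make themselves. Before a glucocorticoid acts in a hepatocyte, it is released from its plasma carrier, and the liver can regenerate active hormone from its inactive keto form in the endoplasmic reticulum or remove it by reduction of its A ring. The active hormone binds a cytosolic receptor held ready by HSP90 and its cochaperones, and the receptor then enters the nucleus to change transcription. The liver is a main site of each of these steps and makes most of the circulating carrier.

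Values are TPM, a unit per transcript length, after a scaling between libraries (scaled TPM), and library numbers are the replicate numbers of the labels. Fold changes are log2 differences of scaled TPM plus 0.5, given with their SE. They come from a single limma model of the 20 libraries, whose p values are two-sided and were adjusted by Benjamini-Hochberg over the 11869 genes, with calls made under 0.05. In bulk liver, fewer cells of a type and less RNA per cell cannot be told apart. The hydrocortisone effect was read without BGZ_L (KYDS against CON), with it (KYDS+BGZ_L against BGZ_L) and as the average of both, which uses the same libraries again and is no independent evidence. The labels name CMC-Na for CON only, so in comparisons with CON a difference in vehicle could not be told apart from that in agent.

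The libraries summed to 914343 to 983962 TPM. Mitochondrially encoded genes took 26.6% to 70.2% of TPM in KYDS+BGZ_L, 19.2% to 68.9% in KYDS, 39.6% to 81.9% in BGZ_L and 65.6% to 90.1% in CON libraries. Scaling factors ranged from 0.962 to 1.79 in KYDS+BGZ_L, from 1.31 to 2.01 in KYDS, from 0.345 to 1.35 in BGZ_L and from 0.231 to 1.26 in CON. All 8 hepatocyte markers on the list (among them Alb, Apoa1 and Ttr) were above 0, and their summed scaled TPM was 8740 to 44049 in KYDS+BGZ_L, 6221 to 62238 in KYDS, 5135 to 5871 in BGZ_L and 5087 to 9020 in CON. Of these 8 markers, 6 were called higher with hydrocortisone averaged over BGZ_L, beside 17.1% of all genes tested, and Cps1 and Hnf4a were not called. The 6 Kupffer cell markers summed to 37.5 to 130.5, 45.5 to 131.8, 35.8 to 583.9 and 32.5 to 73.7 scaled TPM in the same group order, the highest being BGZ_L 1. In the average 0 of these 6 were called. The 3 lymphocyte markers summed to 0.782 to 4.18 in KYDS+BGZ_L, 0.705 to 5.54 in KYDS, 8.28 to 20.5 in BGZ_L and 5.13 to 18.7 in CON. Only 1 of the 3 passed the filter on low values, and it was called lower in the average, beside 14.1% of all genes.

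Hydrocortisone was accompanied by higher RNA of the activation pair and of the carrier, while no call was made for the receptor, its chaperones or the clearance enzymes. Averaged over BGZ_L, Hsd11b1 rose by 1.67 ± 0.26 log2 (a 3.17-fold higher level), Serpina6 by 1.55 ± 0.41 and H6pd by 1.14 ± 0.34. These 3 of 8 genes were called higher, beside 17.1% of all genes tested, and 0 of 8 were called lower, beside 14.1%. An unadjusted p under 0.05 was found for 4 of 8, and for 5011 of all 11869 genes. KYDS against CON gave 1 of 8 higher (Hsd11b1) and 0 lower against backgrounds of 3.25% and 3.02%. There 3 of 8 had an unadjusted p under 0.05, as did 2856 of all 11869 genes. KYDS+BGZ_L against BGZ_L gave 2 of 8 higher (Hsd11b1 and Serpina6) and 0 lower against 8.82% and 8.55%. Again 3 of 8 had an unadjusted p under 0.05, as did 3831 of all 11869 genes. All 3 calls of the averaged effect ended when the nuclear to mitochondrial ratio of each library entered the model as a covariate, with 0.99 log2 left for Hsd11b1 (adjusted p = 0.0612), 0.60 for Serpina6 (0.580) and 0.45 for H6pd (0.651). Over all genes, 198 of 11869 were called in either direction in the averaged effect with the covariate, against 3706 without it. The mitochondrial share averaged 48.9% in KYDS+BGZ_L, 42.4% in KYDS, 67.3% in BGZ_L and 75.1% in CON. It thus differed with hydrocortisone, and the covariate and hydrocortisone cannot be fully told apart.

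**Figure D1:**
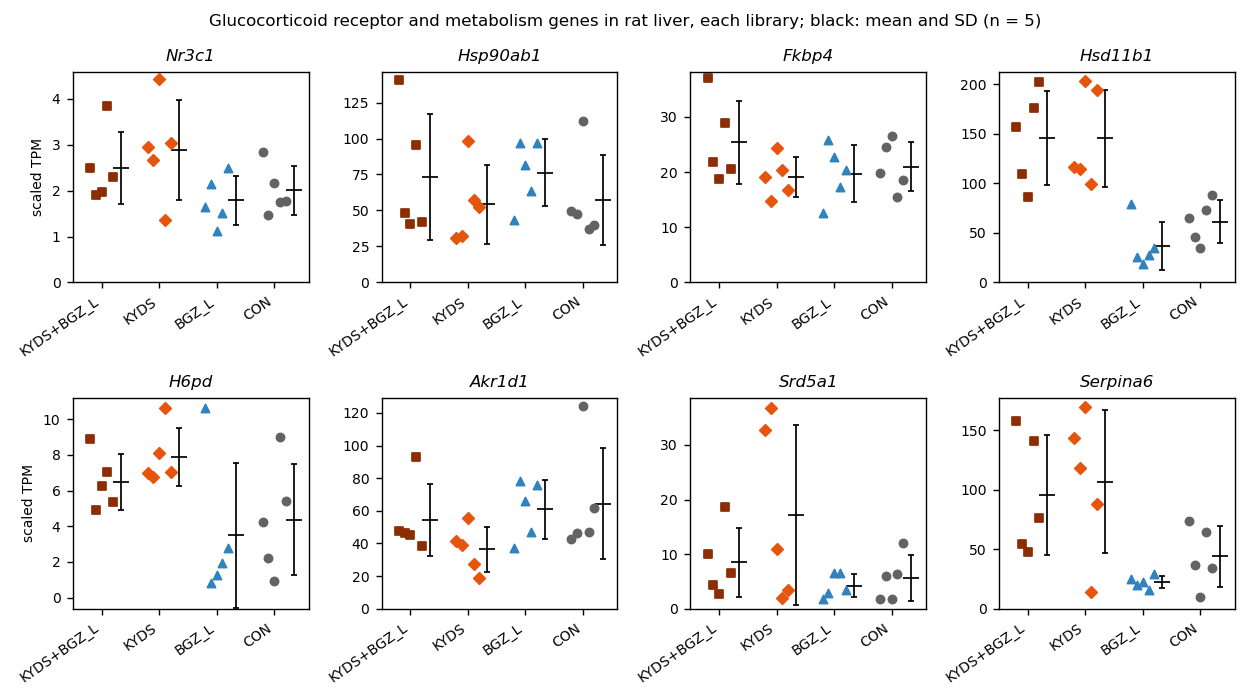
Scaled TPM of the 8 genes in each of 20 rat liver libraries, 1 point per library, with the mean and SD of each group of 5 in black. Hsd11b1 lay at 86.2 or more in the 10 libraries with hydrocortisone and at 88.4 or less in the 10 without it, whereas the groups of Nr3c1, Hsp90ab1 and Fkbp4 overlapped.

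The receptor gene Nr3c1 encodes the nuclear receptor that binds cortisol and corticosterone. It had the lowest level of the 8 genes, at 2.49 ± 0.78 scaled TPM in KYDS+BGZ_L, 2.88 ± 1.09 in KYDS, 1.79 ± 0.54 in BGZ_L and 2.00 ± 0.53 in CON (SD, n = 5 each). Its libraries were at 2.95, 2.66, 4.42, 1.35 and 3.03 in KYDS 1 to 5, against 2.83, 1.47, 2.17, 1.76 and 1.78 in CON 1 to 5. The groups overlapped, since KYDS 4 was the lowest of these 10 libraries and KYDS 3 the highest. KYDS+BGZ_L 1 to 5 were at 2.48, 1.91, 1.96, 3.83 and 2.29, against 1.65, 2.15, 1.13, 1.50 and 2.50 in BGZ_L 1 to 5. All 5 KYDS+BGZ_L libraries lay above the BGZ_L median, but only KYDS+BGZ_L 4 lay above the highest BGZ_L library.

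The fold change of Nr3c1 was 0.39 ± 0.26 log2 in KYDS against CON (adjusted p = 0.361) and 0.39 ± 0.26 in KYDS+BGZ_L against BGZ_L (adjusted p = 0.308). The average was 0.39 ± 0.18, with a 95% confidence interval of 0.01 to 0.77 and an adjusted p of 0.106. It was called without KYDS 4 (0.49, adjusted p = 0.0304), the KYDS library with the highest mitochondrial share. It was also called without scaling between libraries, where the average effect was 1.22 beside a median of 0.82 over all genes. In the model with that covariate, the difference between KYDS and CON was -0.063. The 3 tested genes most like Nr3c1 over the 20 libraries, by Pearson correlation of log2 values, were Spcs3 (0.896), Tvp23b (0.892) and Serinc1 (0.887). All of them share the libraries and their scaling.

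Hsp90ab1 encodes the constitutive cytosolic HSP90 that holds the receptor in a hormone-binding state, and Fkbp4 an immunophilin cochaperone that helps the loaded receptor move to the nucleus. Of the 8 members, 5 matched by symbol to RefSeq promoter windows of build GRCr8 (Nr3c1, Hsp90ab1, Fkbp4, H6pd and Srd5a1), and Hsd11b1, Akr1d1 and Serpina6 did not. The 250 bases upstream of the annotated starts of the chaperone pair are shown because heat shock factors are known to control genes of chaperones and cochaperones. Capitals mark the heat shock element GAANNTTC and the GC box GGGCGG, on either strand, so that CCGCCC is a GC box on the other strand.
Fkbp4 promoter, GRCr8 chr4:163397919-163398168, minus strand: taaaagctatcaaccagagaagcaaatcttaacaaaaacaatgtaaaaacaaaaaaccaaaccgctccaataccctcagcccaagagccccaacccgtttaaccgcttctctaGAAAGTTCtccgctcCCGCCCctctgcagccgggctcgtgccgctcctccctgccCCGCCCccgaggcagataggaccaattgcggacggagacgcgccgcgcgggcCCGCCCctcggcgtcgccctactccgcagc
Hsp90ab1 promoter, GRCr8 chr9:22930173-22930422, plus strand: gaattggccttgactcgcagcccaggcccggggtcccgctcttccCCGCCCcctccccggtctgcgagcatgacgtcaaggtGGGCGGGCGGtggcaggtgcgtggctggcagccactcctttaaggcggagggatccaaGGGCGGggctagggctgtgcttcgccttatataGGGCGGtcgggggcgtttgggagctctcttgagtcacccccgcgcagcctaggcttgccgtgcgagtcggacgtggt
The Fkbp4 window held 1 heat shock element, which starts 137 bases upstream, and the Hsp90ab1 window held none of this spelling, whereas 7.23% of 33469 rat promoter windows of this length held at least 1. GC boxes numbered 3 in Fkbp4 and 5 in Hsp90ab1, of which one pair overlaps, and 30.5% of windows held at least 1. The glucocorticoid response half-site AGAACA was in none of the 6 windows of the 5 matched genes (Nr3c1 has 2 starts), and 17.5% of all windows held it on either strand.

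Hsp90ab1 varied from library to library more than it differed between groups. It was at 31.0, 32.4, 98.5, 57.1 and 52.4 scaled TPM in KYDS 1 to 5, against 49.5, 47.6, 112.2, 37.1 and 39.6 in CON 1 to 5. One library stood high in each group, KYDS 3 and CON 3, and the groups overlapped. KYDS+BGZ_L libraries were at 140.7, 48.3, 40.6, 95.5 and 41.9, against 43.2, 96.8, 81.4, 63.4 and 97.0 in BGZ_L libraries. The differences were -0.08 ± 0.40 log2 in KYDS against CON (adjusted p = 0.926) and -0.18 ± 0.40 in KYDS+BGZ_L against BGZ_L (adjusted p = 0.787). The averaged effect had a 95% interval of -0.73 to 0.46 and turned to 0.96 without scaling, where the median of all genes was 0.82.

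Fkbp4 was the steadiest of the 8 genes by its standard error. It averaged 25.4 ± 7.52 scaled TPM in KYDS+BGZ_L, 19.1 ± 3.66 in KYDS, 19.7 ± 5.08 in BGZ_L and 21.0 ± 4.47 in CON (SD, n = 5 each). Its fold change was -0.13 ± 0.24 log2 in KYDS against CON (adjusted p = 0.790) and 0.35 ± 0.24 in KYDS+BGZ_L against BGZ_L (adjusted p = 0.330). The averaged effect of 0.11 had a 95% interval of -0.24 to 0.47. Without scaling it was 1.18 and called, beside the median of 0.82 over all genes, and the difference between KYDS and CON turned to 1.20 (adjusted p = 0.0503) beside a median of 1.03.

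Among 15 other chaperone and cochaperone genes of the receptor, none was called in KYDS against CON or in KYDS+BGZ_L against BGZ_L. An unadjusted p under 0.05 was found for 2 and 5 of the 15, and for 2856 and 3831 of all 11869 genes. With hydrocortisone averaged over BGZ_L, 6 of the 15 and 5011 of all 11869 genes had an unadjusted p under 0.05. There 0 of the 15 were called higher and 2 lower, beside 17.1% and 14.1% of all genes. The 2 were Fkbp5 and Cdc37, a kinase-recruiting HSP90 cochaperone named after its values were seen, which fell by 0.57 (adjusted p = 0.0192) and 0.69 (adjusted p = 0.0455). The list's median fold changes were -0.20, -0.26 and -0.25 log2 in these comparisons, beside 0.05, 0.06 and 0.05 over all genes. Fkbp5, the cochaperone that competes with Fkbp4 and is a widely used readout of receptor activity, averaged 0.801 ± 0.145 scaled TPM in KYDS+BGZ_L, 0.893 ± 0.405 in KYDS, 1.50 ± 0.556 in BGZ_L and 1.60 ± 0.699 in CON. In the separate comparisons it differed by -0.57 ± 0.25 (adjusted p = 0.171) in KYDS against CON and by -0.58 ± 0.25 (adjusted p = 0.114) in KYDS+BGZ_L against BGZ_L. Without scaling the first was 0.29, which is below the median of 1.03 over all genes. The log2 ratio of Fkbp5 to Fkbp4 within a library was -4.88 to -3.75 in KYDS+BGZ_L and -4.18 to -3.33 in KYDS, against -3.94 to -2.86 in BGZ_L and -3.82 to -2.47 in CON, so each pair of groups overlapped. These values depend on the added constant, since Fkbp5 is near 1 TPM: from deposited values without one, the mean was -4.96 in KYDS+BGZ_L and -4.50 in KYDS, against -3.76 in BGZ_L and -3.80 in CON.

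Hsd11b1 encodes the reductase of the endoplasmic reticulum that turns inactive keto-glucocorticoids back into cortisol or corticosterone. It was at 116.1, 114.3, 203.3, 99.1 and 194.0 scaled TPM in KYDS 1 to 5, against 64.9, 46.1, 34.6, 73.7 and 88.4 in CON 1 to 5. Every KYDS library was above every CON library, and the nearest were KYDS 4 and CON 5. In KYDS+BGZ_L 1 to 5 it was at 156.5, 109.9, 86.2, 176.5 and 202.0, against 79.3, 25.9, 18.2, 27.3 and 35.1 in BGZ_L 1 to 5. These groups did not overlap either, and BGZ_L 1 stood above the other 4 BGZ_L libraries. In the deposited values, before scaling, both pairs were likewise apart, at 130.0 to 357.7 TPM in KYDS against 10.7 to 93.1 in CON and at 82.9 to 280.1 in KYDS+BGZ_L against 6.28 to 38.4 in BGZ_L. Without scaling, the median over all genes was 1.03 log2 in the first pair and 0.63 in the second. Deposited KYDS and CON values were also apart for H6pd (12.1 to 14.2 against 0.52 to 11.3) and Fkbp4 (26.8 to 42.9 against 5.69 to 22.4). The share of all genes apart in deposited values was not computed. In scaled TPM, groups of 5 did not overlap, with the first one higher, for 1 of the 8 members in KYDS against CON, against 3.32% of all genes. In KYDS+BGZ_L against BGZ_L this held for 2 of 8, against 7.2%.

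The fold change of Hsd11b1 was 1.25 ± 0.37 log2 in KYDS against CON (adjusted p = 0.0482) and 2.09 ± 0.37 in KYDS+BGZ_L against BGZ_L (adjusted p = 0.00203). The first call held in 5 of 20 fits with 1 library left out (those without CON 4, CON 5, BGZ_L 1, BGZ_L 3 or KYDS 4), with adjusted p up to 0.123, and it ended under 6 of 11 other settings. The second held in all 20 such fits and under all 11 settings, the nuclear to mitochondrial covariate included, at 1.61 to 2.91 log2. The averaged effect of 1.67 (adjusted p = 2.2e-04) was the 177th highest of 11869 genes, and it held in all 20 fits with 1 library left out. In its level over the 20 libraries Hsd11b1 was most like Fn1 (Pearson correlation of log2 values 0.952), C8a (0.951) and Cfhr2 (0.942), the genes of fibronectin, a complement component and a factor H-related protein.

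**Figure D2:**
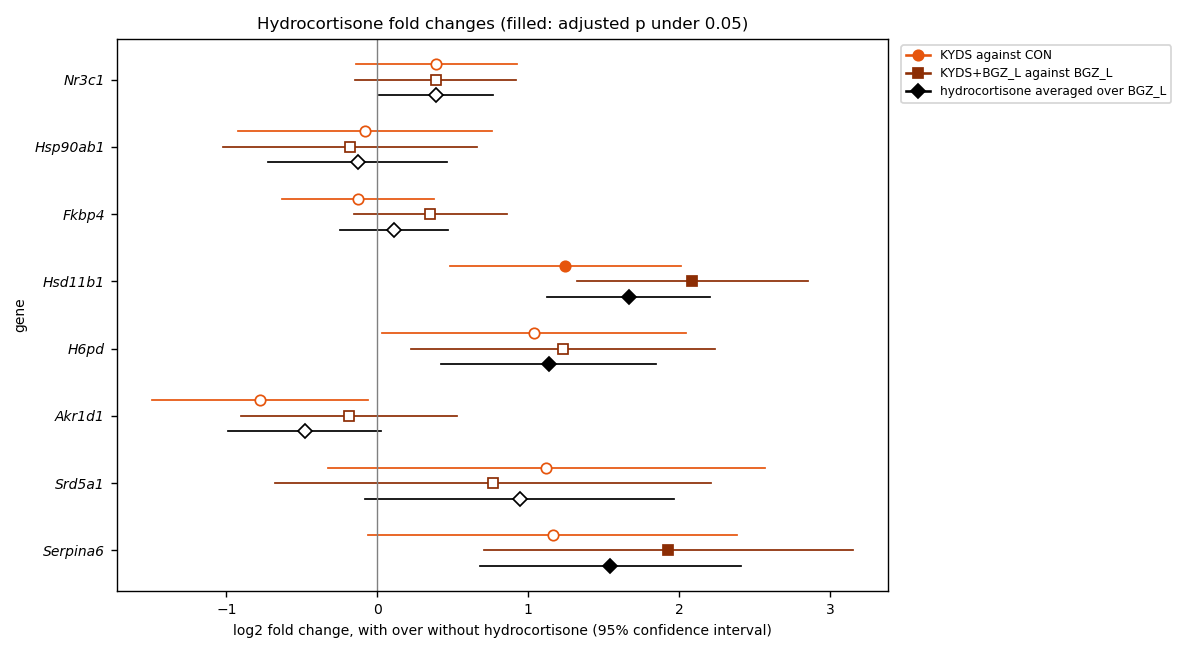
Log2 fold change of each gene with over without hydrocortisone, from the limma fit, with 95% confidence intervals, for KYDS against CON (circles), KYDS+BGZ_L against BGZ_L (squares) and the average of both (diamonds). Filled symbols have an adjusted p under 0.05, which Hsd11b1 had in all 3 comparisons, Serpina6 in 2 and H6pd in 1.

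H6pd encodes the hexose-6-phosphate dehydrogenase of the endoplasmic reticulum lumen, which supplies the NADPH that the Hsd11b1 reductase uses. Its upstream sequence is shown as that of the only called member with a matched promoter window, and it held no heat shock element, GC box or AGAACA half-site, so that no base is in capitals.
H6pd promoter, GRCr8 chr5:165753126-165753375, minus strand: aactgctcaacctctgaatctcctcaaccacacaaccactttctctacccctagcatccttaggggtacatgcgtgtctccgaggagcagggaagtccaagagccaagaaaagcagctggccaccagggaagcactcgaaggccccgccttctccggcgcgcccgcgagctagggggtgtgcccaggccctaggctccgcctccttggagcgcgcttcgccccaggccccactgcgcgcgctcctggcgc
H6pd was at 6.98, 6.74, 8.08, 10.6 and 7.04 scaled TPM in KYDS 1 to 5, against 4.21, 2.25, 0.95, 8.98 and 5.41 in CON 1 to 5. KYDS libraries lay closer together than CON libraries, and CON 4 was inside the KYDS range. KYDS+BGZ_L libraries were at 8.88, 4.94, 6.26, 7.01 and 5.37, against 10.6, 0.82, 1.27, 1.97 and 2.78 in BGZ_L libraries. BGZ_L 1 was above all 5 KYDS+BGZ_L libraries, and the other 4 BGZ_L libraries were below all of them. The fold change was 1.04 ± 0.48 log2 in KYDS against CON (adjusted p = 0.192) and 1.23 ± 0.48 in KYDS+BGZ_L against BGZ_L (adjusted p = 0.0828). Without BGZ_L 1, KYDS+BGZ_L against BGZ_L gave 1.73 (adjusted p = 0.00673). The averaged effect of 1.14 (adjusted p = 0.0169) held in all 20 fits with 1 library left out, and was lost without CON 2 and BGZ_L 3 together, the libraries with the lowest scaling factors (1.00, adjusted p = 0.0547).

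The balance between both activation genes overlapped between groups, and is a description without a test. The log2 ratio of Hsd11b1 to H6pd within a library averaged 4.35 ± 0.54 in KYDS+BGZ_L, 4.07 ± 0.61 in KYDS, 3.50 ± 0.53 in BGZ_L and 3.87 ± 0.59 in CON (SD, n = 5 each). Of 10 tested genes of NADPH and glucose 6-phosphate metabolism, 1 was called higher in KYDS against CON and 4 in KYDS+BGZ_L against BGZ_L. In both 0 were called lower, beside the shares of all genes given above. An unadjusted p under 0.05 was found for 4 and 5 of the 10, and for 2856 and 3831 of all 11869 genes. With hydrocortisone averaged over BGZ_L 4 of the 10 were called higher and 0 lower, beside 17.1% and 14.1% of all genes. The list's median fold changes were 0.43 and 0.87 log2 in the separate comparisons, beside 0.05 and 0.06 over all genes. G6pc, the glucose-6-phosphatase that draws on the same luminal substrate, rose by 5.83 ± 0.98 in KYDS against CON (adjusted p = 0.00261) and by 3.83 ± 0.98 in KYDS+BGZ_L against BGZ_L (adjusted p = 0.0129), and was listed at 0 in 3 CON libraries. These folds depend on the added constant (7.45 and 4.46 with 0.1, 5.09 and 3.39 with 1), and neither was called with the nuclear to mitochondrial covariate (adjusted p = 0.164 and 0.0727). The pentose phosphate genes Tkt and Taldo1 rose by 1.16 ± 0.25 (adjusted p = 0.00530) and 1.06 ± 0.28 (adjusted p = 0.0143) in KYDS+BGZ_L against BGZ_L, and differed by 0.33 and 0.86 in KYDS against CON (adjusted p = 0.431 and 0.0675). Both calls ended with TPM recomputed over nuclear genes, and that of Taldo1 also with the covariate.

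Akr1d1 encodes the beta-reductase that saturates the A ring of cortisol and of bile acid precursors, and so begins steroid clearance. It was at 41.6, 38.9, 55.4, 27.3 and 19.1 scaled TPM in KYDS 1 to 5, against 42.7, 46.1, 124.0, 47.1 and 61.6 in CON 1 to 5. Of the KYDS libraries, 4 lay below the lowest CON library, while KYDS 3 lay among the CON libraries. KYDS+BGZ_L libraries were at 47.9, 46.2, 45.3, 93.0 and 38.2, against 37.1, 78.0, 66.3, 46.8 and 76.0 in BGZ_L libraries. The difference was -0.78 ± 0.34 log2 in KYDS against CON (adjusted p = 0.173) and -0.19 ± 0.34 in KYDS+BGZ_L against BGZ_L (adjusted p = 0.744), and neither passed. Without scaling they turned to 0.57 and 0.65, beside medians over all genes of 1.03 and 0.63.

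Srd5a1, the alpha-reductase that starts the other route of A-ring reduction, had the largest standard error of the 8 genes in the limma fit. It was at 32.7, 36.8, 10.9, 1.98 and 3.49 scaled TPM in KYDS 1 to 5, against 1.75, 5.92, 1.82, 6.39 and 12.0 in CON 1 to 5. Only KYDS 1 and KYDS 2 lay above the highest CON library. KYDS+BGZ_L libraries were at 9.94, 4.35, 2.74, 18.7 and 6.62, against 1.86, 2.96, 6.52, 6.45 and 3.44 in BGZ_L libraries. The differences of 1.12 ± 0.69 log2 (adjusted p = 0.335) and 0.77 ± 0.69 (adjusted p = 0.471) did not pass, and their average of 0.94 had a 95% interval of -0.08 to 1.97. The average was called without KYDS 4 (1.21, adjusted p = 0.0489).

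Genes were also set against each other within a library, where scaling between libraries all but cancels. The activation gene Hsd11b1 was above the clearance gene Akr1d1 in every library with hydrocortisone. It was also above Akr1d1 in CON 1, CON 4, CON 5 and BGZ_L 1. The log2 ratio of Hsd11b1 to Akr1d1 was 1.47, 1.54, 1.87, 1.84 and 3.31 in KYDS 1 to 5, against 0.60, 0.00, -1.82, 0.64 and 0.52 in CON 1 to 5. In KYDS+BGZ_L 1 to 5 it was 1.70, 1.24, 0.92, 0.92 and 2.39, against 1.08, -1.57, -1.84, -0.77 and -1.10 in BGZ_L 1 to 5. KYDS and CON did not overlap, and KYDS+BGZ_L overlapped with BGZ_L through BGZ_L 1 alone. The ratio of Hsd11b1 to Nr3c1 averaged 5.58 ± 0.40 in KYDS+BGZ_L and 5.43 ± 0.32 in KYDS, against 3.88 ± 0.76 in BGZ_L and 4.58 ± 0.62 in CON (SD, n = 5 each). The ratio of Hsp90ab1 to Nr3c1 averaged 4.47 ± 0.65 in KYDS+BGZ_L, 3.95 ± 0.72 in KYDS, 5.04 ± 0.47 in BGZ_L and 4.42 ± 0.61 in CON. That of Fkbp4 to Nr3c1 averaged 3.10 ± 0.35, 2.58 ± 0.52, 3.14 ± 0.48 and 3.10 ± 0.42 in the same group order. These ratios are descriptions without a test.

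**Figure D3:**
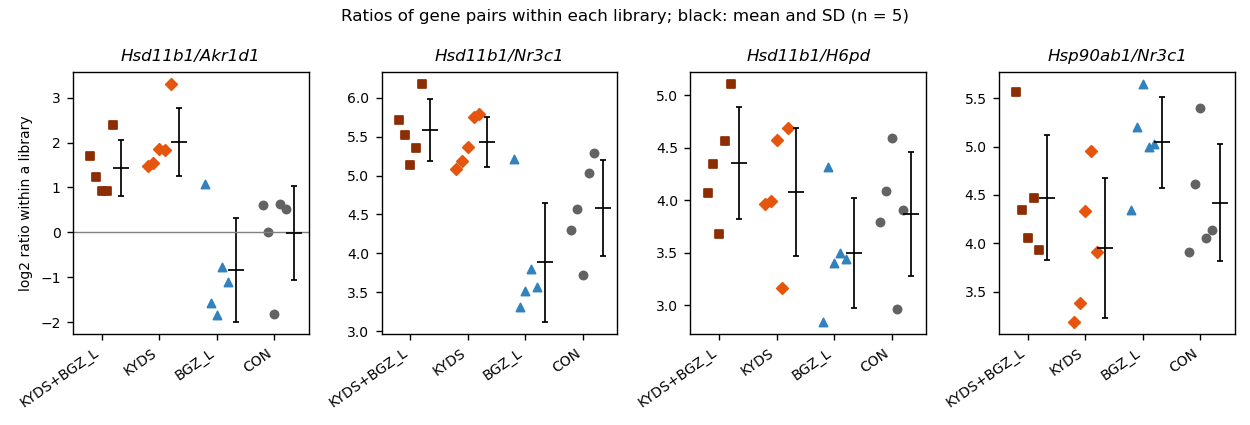
Log2 ratio of 2 genes within each library (scaled TPM plus 0.5), 1 point per library, with the mean and SD of each group of 5 in black. For Hsd11b1 over Akr1d1 all 10 libraries with hydrocortisone lay at 0.92 or higher, and 9 of the 10 libraries without it at 0.64 or lower, with BGZ_L 1 at 1.08.

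Serpina6 encodes corticosteroid-binding globulin, the plasma carrier of cortisol and corticosterone, which hepatocytes secrete. It was at 143.8, 118.6, 169, 14.3 and 87.7 scaled TPM in KYDS 1 to 5, against 73.9, 37.0, 10.2, 64.2 and 34.2 in CON 1 to 5. KYDS libraries other than KYDS 4 were above every CON library. In KYDS+BGZ_L 1 to 5 it was at 158.0, 54.7, 47.8, 140.8 and 76.3, against 25.0, 19.6, 22.6, 16.1 and 29.0 in BGZ_L 1 to 5, with no overlap. The fold change was 1.16 ± 0.59 log2 in KYDS against CON (adjusted p = 0.230) and 1.93 ± 0.59 in KYDS+BGZ_L against BGZ_L (adjusted p = 0.0291). Without KYDS 4 the first was 1.78 and passed (adjusted p = 0.0284). The second was lost without BGZ_L 2 (adjusted p = 0.0567), BGZ_L 3 (0.0558), BGZ_L 4 (0.0646), KYDS+BGZ_L 1 (0.0854) or KYDS+BGZ_L 4 (0.0818). It was also lost under 4 of 11 other settings. These were TPM recomputed over nuclear genes (0.0558), no filter (0.0543), the nuclear to mitochondrial covariate (0.185) and leaving out CON 2 and BGZ_L 3 together (0.0626). The averaged effect of 1.55 (adjusted p = 0.00866) held in all 20 fits with 1 library left out.

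Serpina6 moved with Alb, the albumin gene and another hepatocyte plasma carrier, which averaged 12324 ± 7576 scaled TPM in KYDS+BGZ_L, 13667 ± 12555 in KYDS, 1974 ± 513 in BGZ_L and 3443 ± 1070 in CON. The log2 ratio of Serpina6 to Alb was -7.25 to -6.26 in KYDS+BGZ_L and -7.67 to -5.84 in KYDS, against -7.12 to -5.98 in BGZ_L and -7.44 to -5.65 in CON, and the 4 groups overlapped. KYDS 4, with the highest mitochondrial share of its group, had the highest H6pd (10.6) and the lowest Serpina6 (14.3) of the KYDS libraries. Alb is itself one of the summed hepatocyte markers, and the part of hepatocyte content in these results was not tested.

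**Figure D4:**
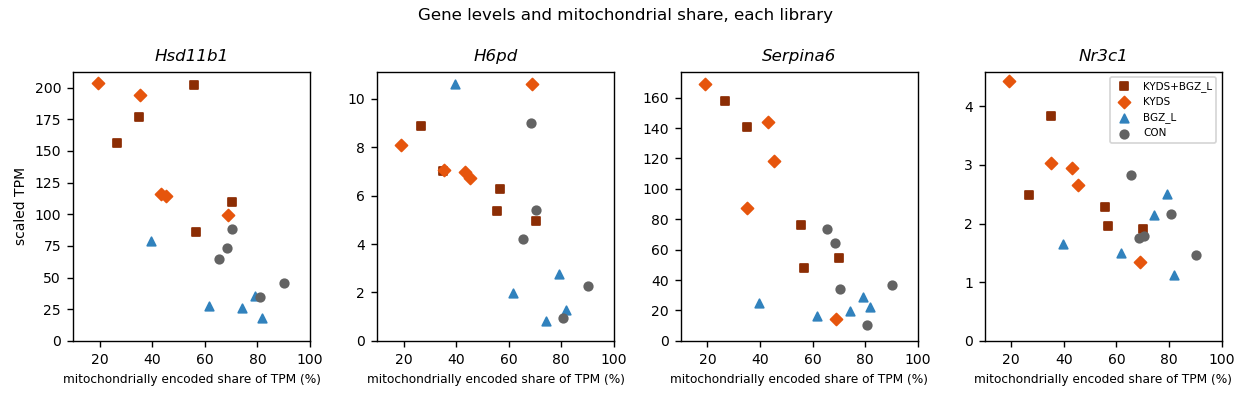
Scaled TPM of 4 genes against the share of TPM from mitochondrially encoded genes, 1 point per library, coloured by group. KYDS 3, with the lowest share (19.2%), had the highest Nr3c1 (4.42), Hsd11b1 (203.3) and Serpina6 (169), and BGZ_L 1, at 39.6%, kept a low Serpina6 (25.0).

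Further lists place the 8 genes in their pathway. Of 10 tested genes of glucocorticoid metabolism and transport, 2 were called higher in KYDS+BGZ_L against BGZ_L, Cyp3a18 (3.72 ± 0.77 log2, adjusted p = 0.00459) and Alb (2.42 ± 0.59, adjusted p = 0.00960), and 0 in KYDS against CON, where 1 had an unadjusted p under 0.05, and the same pair was called in the average. Of all genes, 8.82%, 3.25% and 17.1% were called higher in these comparisons, in the same order. In KYDS against CON 2856 of all 11869 genes had an unadjusted p under 0.05. Of the 16 genes listed, 11 were found by symbol (not Akr1c9, Cyp3a23-3a1, Ugt2b1, Abcb1a or Abcb1b), and Srd5a2 did not pass the filter. Cyp3a18 belongs to the family of cytochromes that hydroxylate steroids, and differed by 0.58 ± 0.77 in KYDS against CON (adjusted p = 0.685), a value that turned to -0.016 without KYDS 3. Hsd11b2, the dehydrogenase that inactivates cortisol in kidney, averaged 0.660 ± 0.443 scaled TPM in KYDS+BGZ_L, 2.06 ± 2.55 in KYDS, 0.406 ± 0.418 in BGZ_L and 1.00 ± 1.15 in CON, and was not called (0.60 ± 0.59 in KYDS against CON, adjusted p = 0.560, and 0.40 ± 0.59 in KYDS+BGZ_L against BGZ_L, adjusted p = 0.676). Of 11 tested receptor coregulators, 0 were called higher and 1 lower in KYDS against CON (3.25% and 3.02% of all genes), 1 higher and 2 lower in KYDS+BGZ_L against BGZ_L (8.82% and 8.55%) and 1 higher and 3 lower in the average (17.1% and 14.1%). The coactivator Ncoa3 fell by 1.54 (adjusted p = 0.0369) in KYDS against CON and by 2.20 (adjusted p = 0.00284) in KYDS+BGZ_L against BGZ_L. The first call ended under 6 of 11 other settings and in the fits without CON 1, CON 2, CON 3, KYDS 2, KYDS 3 or KYDS 5, and the second held in all of them. With BGZ_L present in both groups the corepressor gene Ncor1 also fell, by 1.06 (adjusted p = 0.0452), a call that ended under 7 of 11 settings and in 10 of 20 fits with 1 library left out (CON 1, CON 5, BGZ_L 2, BGZ_L 3, BGZ_L 4, KYDS 2, KYDS 5, KYDS+BGZ_L 1, KYDS+BGZ_L 3 and KYDS+BGZ_L 4). The corepressor gene Nrip1 rose by 0.64 ± 0.18 (adjusted p = 0.0177), and was called in the 15 such fits in which it passed the filter on low values, while the call ended with nuclear TPM and with the covariate.

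Among 15 tested target genes of the receptor, 2 rose and 1 fell in KYDS against CON, and 0 rose and 5 fell in KYDS+BGZ_L against BGZ_L, beside 3.25% and 3.02% of all genes in the first comparison and 8.82% and 8.55% in the second. In the average 1 rose and 5 fell, beside 17.1% and 14.1%, and the one among them called in neither separate comparison was Sgk1, which fell by 0.86 (adjusted p = 0.0317). Dusp1, a phosphatase gene induced by glucocorticoids, rose by 2.15 ± 0.42 log2 (adjusted p = 0.00859) in the first comparison, with 1.16 ± 0.42 (adjusted p = 0.0601) in the second, and its call ended with the covariate (adjusted p = 0.261). Nfkbia, the inhibitor of NF-kB, fell by 0.66 (adjusted p = 0.0440) and by 1.32 (adjusted p = 4.3e-04). The first call ended under 6 of 11 settings and in 11 of 20 fits with 1 library left out, namely those without any 1 of the 5 CON libraries, KYDS 1, KYDS 2, KYDS 3, KYDS 5, KYDS+BGZ_L 1 or KYDS+BGZ_L 5. The second held in all 20 and ended without scaling and with nuclear TPM. Without scaling the first was 0.63, below the median of 1.03 over all genes. Tsc22d3, the leucine zipper gene known as a receptor target, differed by -0.59 ± 0.33 (adjusted p = 0.294), or 0.60 without scaling beside the same median, in the first comparison and fell by 1.43 (adjusted p = 0.00817) in the second, a call that ended without scaling and with nuclear TPM. The other called targets, named after their values were seen, were Errfi1, higher in the first comparison (1.29, adjusted p = 0.0396), and Tat, Per1 and Klf9, lower in the second by 0.86, 1.34 and 0.94 (adjusted p = 0.0345, 0.0109 and 0.0204). In the first, second and averaged comparison 3, 8 and 6 of the 15 had an unadjusted p under 0.05. Of all 11869 genes, 2856, 3831 and 5011 did. Median fold changes of the 15 were 0.01, -0.77 and -0.26 log2, beside 0.05, 0.06 and 0.05 over all genes. In KYDS+BGZ_L against KYDS only Tat was called (lower), beside 0.126% of all genes. There 8 of the 15 had an unadjusted p under 0.05, beside 405 of all 11869 genes, and the median was -0.66 beside -0.02. For the interaction 0 were called, and the median was -0.81 beside -0.01. An unadjusted p under 0.05 was found for 4 of the 15, beside 447 of all 11869 genes.

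BGZ_L alone, or added to hydrocortisone, changed none of the 8 genes by the limma test. In BGZ_L against CON 0 of 8 were called, beside a background of 0%. An unadjusted p under 0.05 was found for 1 of 8, and for 715 of all 11869 genes. Differences lay between -0.84 ± 0.37 log2 (Hsd11b1, unadjusted p = 0.0335, adjusted p = 0.799) and 0.48 ± 0.40 (Hsp90ab1). In KYDS+BGZ_L against KYDS 0 of 8 were called, beside a background of 0.126%. There 0 of 8 had an unadjusted p under 0.05, against 405 of all 11869 genes. Differences lay between -0.53 ± 0.69 (Srd5a1) and 0.58 ± 0.34 (Akr1d1). Hsd11b1 was at 146.2 ± 47.6 scaled TPM in KYDS+BGZ_L and 145.4 ± 49.2 in KYDS, a difference with a 95% interval of -0.76 to 0.77 log2. For the interaction of hydrocortisone and BGZ_L 0 of 8 were called, beside a background of 0.0253%. An unadjusted p under 0.05 was found for 0 of 8, against 447 of all 11869 genes. The largest interaction was that of Hsd11b1, at 0.84 ± 0.52 with a 95% interval of -0.24 to 1.92 (adjusted p = 0.999). A larger hydrocortisone effect in rats given BGZ_L was therefore not shown.

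**Figure D5:**
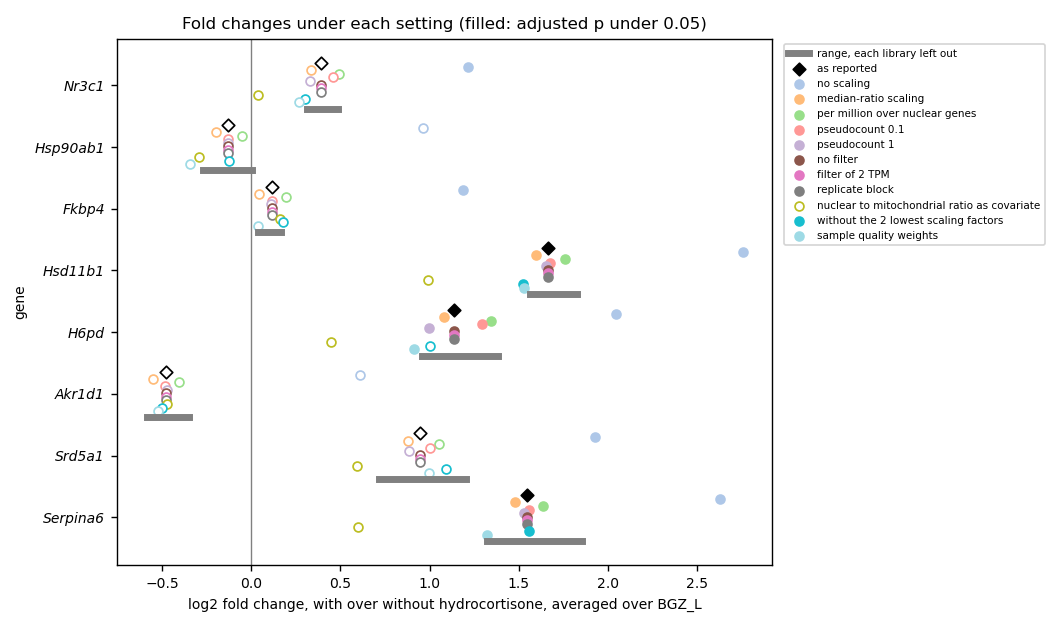
Log2 fold change of each gene for hydrocortisone averaged over BGZ_L, as reported (black diamond) and under 11 other settings (coloured circles), with the range over 20 fits that each leave out 1 library (grey bar). Filled symbols have an adjusted p under 0.05. The setting without scaling lies to the right for all 8 genes, and the covariate lies nearer 0 for the 3 called genes.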

How the data were processed

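Liver RNA of male rats was sequenced in 20 libraries, 5 per group. Groups and replicate numbers came from the sample titles. Per the labels' protocols, Trizol extraction and a DNase I step preceded TruSeq library construction, and only read 1 of each pair was analysed by the authors. The deposited values were read as TPM, because they have 2 decimals and sum to 914343 to 983962 per library, although the table is named as raw counts. How they were computed, with which aligner and annotation, is not stated in the labels or the file header. Per the submitters' processing notes the builds are mouse ones (GRCm38, mm10 and GRCm39), while the gene identifiers are from rat, so no coordinates of the files are given. TPM keeps no read totals, so the depth is unknown and no counting interval was computed. No 2 libraries had identical values.

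TPM was scaled by an unweighted trimmed mean of log ratios (trimming 30% of ratios and 5% of levels). Genes at 0.5 scaled TPM or more in at least 5 libraries were tested as log2 of scaled TPM plus 0.5, which understates changes of low genes. The 4 group means were fitted with limma 3.58.1 in R 4.3.3 (trended robust prior, 16 residual degrees of freedom), and figures were drawn with matplotlib 3.10.9. The method was tested on simulated data, drawn independently for each gene and library. These had no library-wide differences in scaling or mitochondrial share, so the test does not cover such differences. Of 30 correlations between same-numbered libraries of different groups, 7 were above 0.1, so the numbers were not taken as pairs. The 8 genes, the gene lists and the tests were chosen with earlier results of these data known. In each list at most 3 genes called in either separate hydrocortisone comparison are named by smallest adjusted p, with Fkbp5 and Hsd11b2 in any case, and likewise the 3 genes best correlated with Nr3c1 and with Hsd11b1. Promoter windows came from RefSeq tables of build GRCr8, matched by symbol. Alternatives covered the scaling, the added constant, the filter, a replicate block, a mitochondrial covariate, sample weights and left-out libraries.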

Additional observations from a re-analysis of the deposited data

Results flagged for a closer look

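Of 32 combinations of gene and group, 5 had 1 library apart from the other 4 by Dixon's criterion on scaled TPM. About 1 in 20 groups would be marked by chance if values were normally distributed, which scaled TPM need not be. On log2 values, chosen after seeing the data, 3 were marked: Hsp90ab1 in CON 3 and Akr1d1 in KYDS+BGZ_L 4 again, and Serpina6 in KYDS 4 (14.3, the lowest). BGZ_L 1 was the highest of its group for Hsd11b1 (79.3 scaled TPM, next 35.1) and H6pd (10.6, next 2.78), and it had the lowest mitochondrial share (39.6%) and the highest Kupffer marker sum (583.9) of the BGZ_L libraries. CON 3 was the highest of its group for Hsp90ab1 (112 scaled TPM, next 49.5) and Akr1d1 (124, next 61.6). KYDS+BGZ_L 4 was the highest of its group for Akr1d1 (93.0 scaled TPM, next 47.9). The part of library quality in these values was not tested.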

How the results depend on the processing

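Without scaling between libraries, the median fold change over all genes was 1.03 log2 in KYDS against CON, 0.63 in KYDS+BGZ_L against BGZ_L and 0.82 in the average, and KYDS against CON gave 5867 genes higher and 66 lower, against 386 and 358 with scaling.

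The number of the 8 genes called in KYDS against CON, 1 as reported, was 5 without scaling and 0 with median-ratio scaling, TPM recomputed over nuclear genes, no filter, the mitochondrial covariate, sample weights or without the 2 libraries of lowest scaling factor, and 0 to 2 with each library left out. Over all genes, calls in either direction numbered 744 of 11869 as reported and 5933 of 12168 without scaling. In the order of the other settings they numbered 667 of 11863, 92 of 13696, 367 of 19797, 23 of 11869, 728 of 11869 and 256 of 11974. In KYDS+BGZ_L against BGZ_L, 2 as reported, the number of the 8 genes was 3 without scaling or with sample weights, 1 with nuclear TPM, no filter, the covariate or without those 2 libraries, and 1 to 3 with each library left out. Over all genes there were 2062 calls of 11869 as reported, 2042 of 12168 without scaling and 2903 of 11869 with sample weights. In the order of the other settings there were 576 of 13696, 1626 of 19797, 669 of 11869 and 1362 of 11974. In the average, 3 as reported, the number of the 8 genes was 6 without scaling, 2 without those 2 libraries, 0 with the covariate and 3 to 5 with each library left out. Over all genes, calls numbered 3706 of 11869 as reported and 7259 of 12168 without scaling. Without those 2 libraries they numbered 2810 of 11974, and with the covariate 198 of 11869.

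Without scaling, where the medians above apply, values turned in sign for Hsp90ab1 (1.27, 0.65 and 0.96 in KYDS against CON, KYDS+BGZ_L against BGZ_L and the average), Akr1d1 (0.57, 0.65 and 0.61), and in KYDS against CON for Fkbp4 (1.20), Fkbp5 (0.29), Ncor1 (0.66), Nfkbia (0.63) and Tsc22d3 (0.60). With the covariate, KYDS against CON turned for Nr3c1 (-0.063), Serpina6 (-0.056), Ncor1 (0.092), Cyp3a18 (-1.35) and Alb (-0.042), and with sample weights for Cyp3a18 (-0.58). With each library left out, Hsp90ab1 ranged from -0.32 to 0.20 in KYDS against CON and from -0.27 to 0.0063 in the average, the interaction of Srd5a1 from -0.88 to 0.097 and Cyp3a18 in KYDS against CON from -0.016 to 1.12. The cause of these changes was not tested.

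The pairing check gave no ground for pairs (2 of 20 libraries matched their own number best). With a replicate block the number of the 8 genes called stayed at 1, 2 and 3 in the hydrocortisone comparisons, with Hsd11b1 at 1.25 in KYDS against CON (adjusted p = 0.0438). It ended the calls of Ncoa3 and Nfkbia in KYDS against CON (adjusted p = 0.055 and 0.0647) and of Ncor1 in KYDS+BGZ_L against BGZ_L (0.0675). Group means of ratios within a library, recomputed with an added constant of 0.1 and, chosen after seeing the data, from deposited values without one, moved by less than 1 SD except for Fkbp5 to Fkbp4, which was -4.79 and -4.96 in KYDS+BGZ_L and -4.33 and -4.50 in KYDS. The ratio of Hsd11b1 to Srd5a1 was not recomputed. Depth is unknown, so genes near 1 TPM such as Nr3c1, Fkbp5 and Hsd11b2 carry an unquantified counting error.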
